A study of Arabidopsis thaliana with 24 samples.

Results

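The effect of losing PIF7 was measured in naive Arabidopsis thaliana seedlings after 1 h of shade, by comparing 2 pif7-1 libraries with 2 WT libraries out of the 24 libraries of the study. The members were the libraries titled N_SH_pif7-1 and N_SH_WT, replicates 1 and 2 of each, and values were TPM (a relative transcript abundance corrected for length and library total) analysed as log2(TPM + 1). Both groups were whole seedlings of the Col-0 background, given as Col-0 for WT and as pif7-1 for the mutant, a line with a lesion in the gene for the transcription factor PIF7. In both, seedlings were 4 days old at the start and spent 8 h and then a further 40 h of recovery in white light, and ended with 1 h of shade in which red to far-red light stood near 0.5. Naive therefore means that the first 8 h were white light, whereas primed seedlings had shade in those hours. Naive seedlings kept in white light throughout, primed seedlings in shade and naive ref6-1 seedlings in shade served for the comparisons that set the result in context, with 2 libraries in each group. Whether replicates are separate cultures is not stated in the labels, and the spread behind each p-value may therefore be technical. The mutant is represented by a single allele, and in whole seedlings fewer cells of a type and less RNA per cell cannot be told apart.

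The 8 naive mutant libraries (pif7-1 and ref6-1) were deposited later than WT, in a separate run of sample numbers, while the 16 other libraries, WT included, share the earlier run. Genotype and deposition block therefore cannot be told apart in the direct comparison of naive pif7-1 with naive WT. An offset common to naive pif7-1 libraries in both lights would drop out of the difference between the shade responses, which is given beside the main results, and pif7-1 against ref6-1 compares libraries inside the later block.

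PIF7 belongs to the phytochrome-interacting factors, basic helix-loop-helix proteins that bind G-box and related motifs. In white light PIF7 is held inactive by phosphorylation, and when neighbouring leaves lower the ratio of red to far-red light the loss of active phytochrome B leaves PIF7 dephosphorylated and able to activate transcription. Its best known targets are early shade genes such as ATHB2 and the YUCCA enzymes of auxin synthesis, whose product drives elongation of the hypocotyl.

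PIF7 itself (AT5G61270) was 44.5 and 42.3 TPM in the WT shade libraries and 2.02 and 1.42 TPM in the pif7-1 shade libraries. It was 54.9 and 76.6 TPM in naive WT and 3.03 and 2.71 TPM in naive pif7-1 in white light. Every pif7-1 library was below every WT library in both lights. The log2 difference was -4.04 ± 0.22 (SE, n = 2 against 2, limma with Benjamini-Hochberg adjustment, adjusted p = 1.68e-08) in shade and -4.09 in white light, so the genotype labels match the transcript. The gene overlaps the annotated AT5G61260, and its remaining reads may in part belong to that neighbour.

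Of 21473 genes tested, 3204 (14.9%) passed an adjusted p under 0.05, with 897 (4.18%) higher and 2307 (10.7%) lower in pif7-1. Of these, 172 were higher and 465 lower by more than 2-fold. The median log2 difference over all tested genes was -0.08. After quantile normalization, which moved that median to 0.02, 1989 genes were higher and 1693 lower, so the excess of lower genes depended on the scaling. Leaving out a single library also changed the count, to 1504 without WT replicate 1, 1439 without WT replicate 2, 967 without pif7-1 replicate 1 and 1877 without pif7-1 replicate 2. With only the 4 compared libraries in the fit, 535 genes passed, of which 435 were lower.

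The WT shade libraries carried more organelle transcript than most others. Summed TPM of mitochondria-encoded genes was 559 and 321 in WT shade and 73 and 91.9 in pif7-1 shade, against 58.9 to 186 outside these groups and apart from naive ref6-1 in shade, at 407 and 158. Chloroplast-encoded genes summed to 15260 and 7259 TPM in WT shade and 2408 and 2781 TPM in pif7-1 shade. With the mitochondrial sum as a covariate, an alternative chosen after seeing the data and one that largely separates these groups itself, 157 genes passed, of which 48 were higher and 109 lower. Among cell type markers, the summed TPM of 12 leaf and shoot genes was 67420 and 66470 in WT shade and 91860 and 96990 in pif7-1 shade. For 15 root markers, of which 14 were tested, the sums were 53.8 and 49.1 TPM against 47.2 and 44.2 TPM. Of the tested markers, COBL9 was at 0 in at least 1 of these libraries. Sums of 11 seed storage genes, of which 8 were tested, were 44.2 and 41.8 TPM against 26.2 and 27.5 TPM. The tested SESA2 and SESA3 were at 0 in at least 1 library. Sums of 9 genes of dividing cells were 115 and 122 TPM against 104 and 96.4 TPM. The part of organelle transcript and of tissue makeup in the results that follow was not tested.

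**Figure D1:**
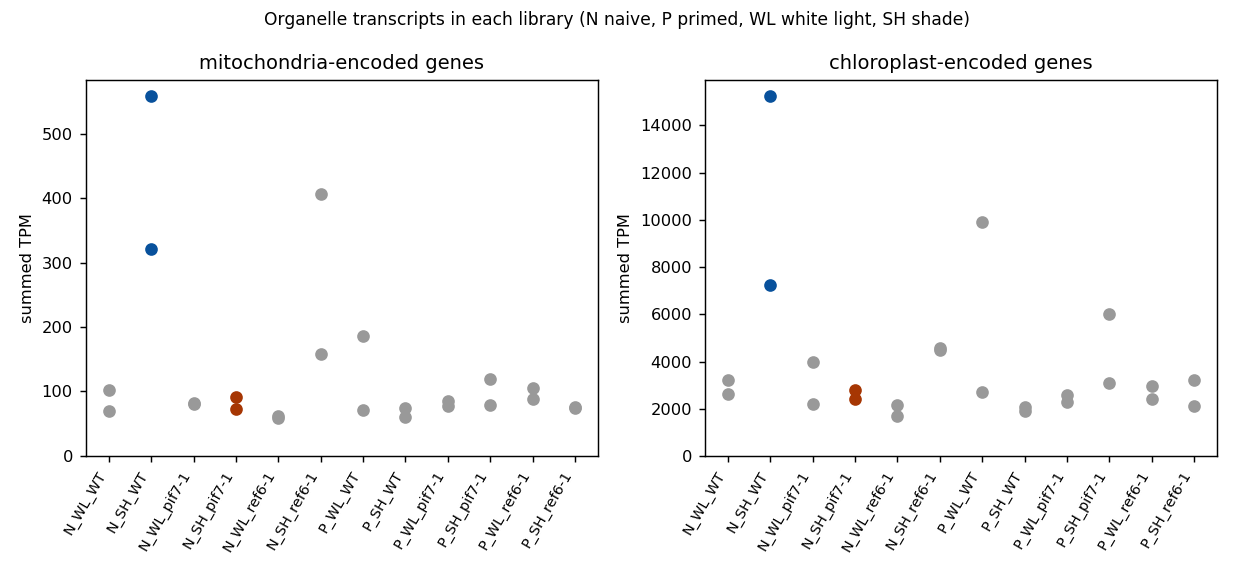
Summed TPM of mitochondria-encoded genes (left) and chloroplast-encoded genes (right), 1 point per library and 2 libraries per group, on linear axes from 0; blue points are WT and red points pif7-1 in naive shade, and grey points are the 10 other groups. The WT naive shade libraries, at 559 and 321 TPM for mitochondria, stand above the pif7-1 libraries, at 73 and 91.9 TPM.

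Promoters of the 4 strongest falling members of the early shade, auxin synthesis and Aux/IAA lists are shown because their motifs bear on what a basic helix-loop-helix factor could bind, together with that of SAUR68, which was added after the motif shares were seen. Each is the 250 bases upstream of the annotated transcript start, 5′ to 3′ on the strand of the gene, read from the RefSeq annotation of build TAIR10.1. Capitals mark CACGTG, the G-box, or CACATG and its reverse complement CATGTG, which together cover both strands and do not overlap one another in these sequences. IAA29 lies on the plus strand (chr4:15583082-15583331), IAA6 on the minus strand (chr1:19673653-19673902), YUC9 on the plus strand (chr1:1104243-1104492), IAA5 on the minus strand (chr1:5366498-5366747) and SAUR68 on the plus strand (chr1:10319482-10319731).
IAA29: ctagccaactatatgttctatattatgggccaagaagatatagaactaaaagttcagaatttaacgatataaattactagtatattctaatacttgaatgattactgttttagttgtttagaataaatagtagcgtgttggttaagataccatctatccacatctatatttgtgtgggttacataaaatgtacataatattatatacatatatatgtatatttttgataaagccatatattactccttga
IAA6: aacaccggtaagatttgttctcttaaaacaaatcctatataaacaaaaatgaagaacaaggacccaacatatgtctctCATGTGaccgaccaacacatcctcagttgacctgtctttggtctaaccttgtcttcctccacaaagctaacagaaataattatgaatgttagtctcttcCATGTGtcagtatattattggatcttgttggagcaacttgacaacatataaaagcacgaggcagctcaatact
YUC9: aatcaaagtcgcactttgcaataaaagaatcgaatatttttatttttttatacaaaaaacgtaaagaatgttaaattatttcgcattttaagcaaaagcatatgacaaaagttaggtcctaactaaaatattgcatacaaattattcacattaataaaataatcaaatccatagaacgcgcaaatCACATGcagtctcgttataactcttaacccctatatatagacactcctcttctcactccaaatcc
IAA5: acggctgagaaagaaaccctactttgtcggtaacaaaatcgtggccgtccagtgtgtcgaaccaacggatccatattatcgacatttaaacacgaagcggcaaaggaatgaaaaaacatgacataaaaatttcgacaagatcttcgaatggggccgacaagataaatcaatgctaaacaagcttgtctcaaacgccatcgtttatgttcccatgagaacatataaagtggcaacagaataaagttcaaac
SAUR68: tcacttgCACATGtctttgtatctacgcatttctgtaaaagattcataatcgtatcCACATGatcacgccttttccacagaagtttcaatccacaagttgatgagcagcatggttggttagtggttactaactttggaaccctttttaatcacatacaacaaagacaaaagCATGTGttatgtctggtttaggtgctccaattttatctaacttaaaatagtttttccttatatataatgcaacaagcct
CATGTG began at positions -172 and -73 of IAA6, CACATG at -65 of YUC9, and SAUR68 held CACATG at -243 and -194 and CATGTG at -79, counted from the first transcribed base. The windows of IAA29 and IAA5 held none of these letters. SAUR68 was taken from the SAUR genes whose window held CACATG or CATGTG, so holding a match was a condition of its choice.

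Over the 19815 tested protein-coding genes with such a window, 7.56% held CACGTG and 11.2% held CACATG or CATGTG. Among the 381 genes lower by more than 2-fold the shares were 9.97% and 19.2%, and among the 134 higher by more than 2-fold they were 6.72% and 13.4%. Of 20 SAUR genes, 14 (70%) held CACATG or CATGTG and 0 held CACGTG, but the SAUR family contains near-identical tandem copies whose promoters are related. Of 20 Aux/IAA and GH3 genes, 4 (20%) held CACGTG and 5 (25%) held the other motif. For 17 early shade genes the numbers were 1 (5.88%) and 4 (23.5%), and for 25 aliphatic glucosinolate genes 3 (12%) and 1 (4%). Among all 2167 lower genes with a window the shares were 7.8% and 13.2%, and among all 854 higher genes 8.9% and 12.5%. A match describes letters in the window and is not evidence of binding.

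Early shade genes were lower in pif7-1 as a group. Of 17 tested members, 14 were lower and 0 higher, against 10.7% and 4.18% of all genes, and the median log2 difference was -1.12. HAT2, a class II homeodomain-leucine zipper factor, was 148 and 168 TPM in WT and 36.1 and 33.9 TPM in pif7-1 (log2 difference -2.14 ± 0.15, adjusted p = 2.94e-07). PAR1, an atypical helix-loop-helix protein that restrains the shade response, was 43.4 and 49.2 TPM in WT and 7.5 and 14.6 TPM in pif7-1 (-2.04 ± 0.29, adjusted p = 0.0003). The groups did not overlap for either gene, nor for 16 of the 17 members. BEE1, a brassinosteroid-induced helix-loop-helix factor, fell by 2.06 on the log2 scale, and CKX5, a cytokinin oxidase that overlaps another gene, fell by 1.76. Without WT replicate 2 the list had 9 lower members, and with the mitochondrial covariate 4.

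The classical shade markers moved less than these, and were picked out after their values had been seen. ATHB2, the homeobox gene long used to report shade, was 283 and 280 TPM in WT and 119 and 148 TPM in pif7-1 (-1.08 ± 0.17, adjusted p = 0.000771). HFR1, an atypical helix-loop-helix inhibitor of PIF proteins, was 264 and 249 TPM against 144 and 160 TPM (-0.75 ± 0.24, adjusted p = 0.0426). PIL1, a PIF-related factor that is among the fastest shade genes, was 67.9 and 61.2 TPM against 49.2 and 51.5 TPM, and its difference of -0.35 ± 0.16 did not pass (adjusted p = 0.145). The call for HFR1 was lost without any of the 4 libraries (adjusted p of 0.0989 to 0.207) and after quantile normalization (0.083), and that for ATHB2 was lost with the 4 compared libraries alone (0.0522) and with the mitochondrial covariate (0.188). All 3 genes still responded to shade in pif7-1. Against white light PIL1 rose by 4.42 on the log2 scale in pif7-1 and 4.86 in WT, ATHB2 by 3.11 and 4.31, and HFR1 by 2.55 and 3.4. The difference between the responses passed for ATHB2 (-1.2, adjusted p = 0.00458) and not for HFR1 (-0.85, adjusted p = 0.105) or PIL1 (-0.44, adjusted p = 0.204). These responses share the shade libraries with the direct comparison and are given beside it, not as a second line of evidence.

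**Figure D2:**
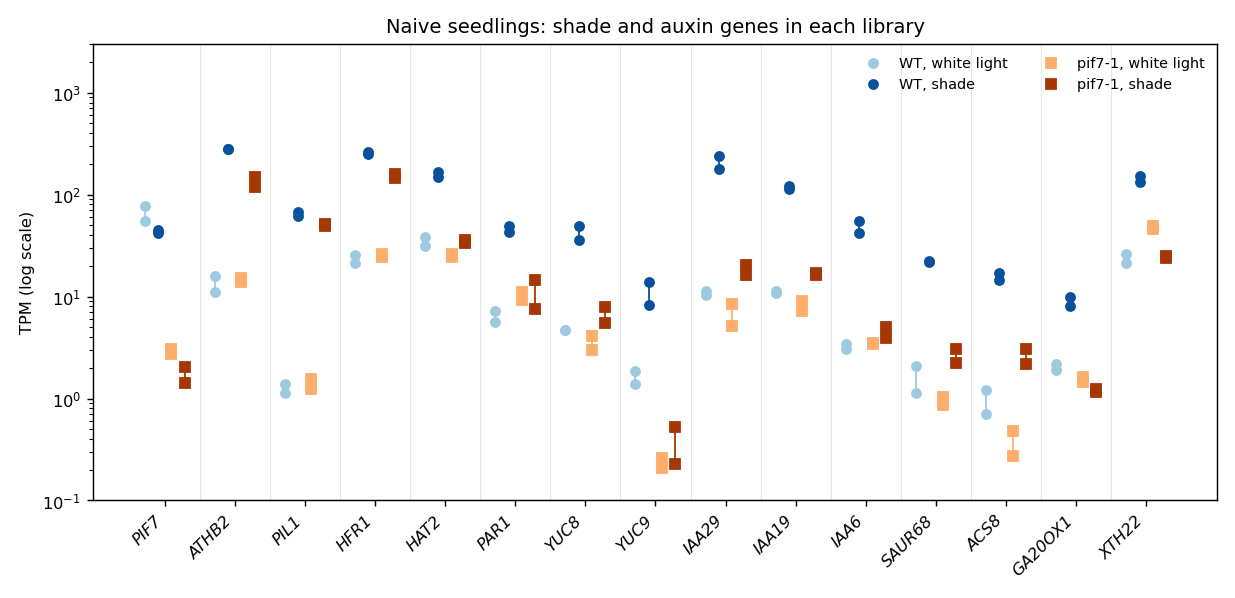
TPM on a log axis for PIF7 and 14 shade, auxin, ethylene, gibberellin and cell wall genes, 1 point per library for naive WT (blue circles) and naive pif7-1 (orange and red squares) in white light (pale) and shade (dark), with a line joining the 2 libraries of a group. PIL1 and HFR1 in pif7-1 lie near WT in shade, while YUC9, IAA29 and SAUR68 lie far below it.

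Transcripts of several YUCCA genes of auxin synthesis were lower. Of 9 tested genes, 4 were lower and 1 higher, beside 10.7% and 4.18% of all genes, with a median log2 difference of -0.5. YUC8, a flavin monooxygenase that makes auxin from indole-3-pyruvate, was 35.5 and 49.5 TPM in WT and 5.48 and 7.91 TPM in pif7-1 (-2.5 ± 0.22, adjusted p = 4.52e-06). YUC9, its close relative whose promoter is printed above, was 8.28 and 13.9 TPM in WT and 0.53 and 0.23 TPM in pif7-1 (-3.1 ± 0.32, adjusted p = 2.31e-05). YUC2 fell by 1.46 and YUC3 by 0.85. TAA1, the aminotransferase that supplies the YUCCA substrate, went the other way, at 3.77 and 3.79 TPM in WT and 8.97 and 7.42 TPM in pif7-1 (0.94 ± 0.13, adjusted p = 0.000213). In WT, TAA1 was 16.2 and 16.7 TPM in white light, so its level dropped with shade in WT and dropped less in pif7-1. With the mitochondrial covariate 1 of the 9 genes was lower and 0 higher. The calls for YUC9 (adjusted p = 0.0525 by limma), YUC2 (0.088) and TAA1 (0.0553) were lost there. With only the 4 compared libraries in the fit, 2 genes were lower and 0 higher.

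Most genes of the Aux/IAA and GH3 list were lower, and auxin is known to induce many, though not all, genes of these families. In this list of transcriptional repressors and auxin-conjugating enzymes, 15 of 20 tested were lower and 0 higher, beside 10.7% and 4.18% of all genes. The median was -1.35. IAA29 was 179 and 237 TPM in WT and 16.3 and 20.4 TPM in pif7-1 (-3.43 ± 0.23, adjusted p = 2.61e-07). IAA19 was 121 and 114 TPM against 17 and 16.4 TPM (-2.75 ± 0.16, adjusted p = 5.03e-08), and IAA6 was 55.3 and 42.3 TPM against 3.9 and 4.99 TPM (-3.19 ± 0.28, adjusted p = 4.06e-06). In each of these 3 genes the lowest WT library was above the highest pif7-1 library. IAA5, which overlaps another gene, was 19.1 and 17.9 TPM against 2.14 and 0.81 TPM (-3.03 ± 0.31, adjusted p = 2.14e-05). Of the GH3 genes, GH3.3 fell by 2.47, GH3.5 by 1.67 and GH3.6 by 0.98, all past the threshold, while GH3.17 (-0.33, adjusted p = 0.143) and GH3.1 (-1.1, adjusted p = 0.0972) did not pass. IAA12 (-0.04) and IAA17 (-0.14), also Aux/IAA repressors, did not pass either. With the mitochondrial covariate 7 of the 20 genes were lower, with a median of -1.39.

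Small auxin up RNA genes, SAUR, encode short proteins that favour cell expansion. Of 20 tested members 17 were lower and 0 higher, beside 10.7% and 4.18% of all genes, with a median of -1.09. The shade libraries of the groups did not overlap for 19 of the 20. SAUR68 was 21.6 and 22.5 TPM in WT and 3.03 and 2.21 TPM in pif7-1 (-2.68 ± 0.27, adjusted p = 1.95e-05). SAUR19, of the subfamily that keeps plasma membrane proton pumps active, was 113 and 96.1 TPM against 48.6 and 36.9 TPM (-1.28 ± 0.21, adjusted p = 0.000986). SAUR20 to SAUR24 fell by 0.83 to 1.22. SAUR14 (0.21), SAUR16 (-0.29) and SAUR61 (-0.26) did not pass. Members of the SAUR19 and SAUR61 clusters are near-identical, so reads may have been divided between copies and their separate values are uncertain. With the mitochondrial covariate 2 of the 20 passed, SAUR68 and SAUR10, with a median of -0.83.

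Auxin transport genes changed less, with 4 of 14 tested members lower and 1 higher, beside 10.7% and 4.18% of all genes. The median was -0.27. PIN3, the efflux carrier that moves auxin laterally in the shaded hypocotyl, was 117 and 136 TPM in WT and 74 and 73.8 TPM in pif7-1 (-0.76 ± 0.16, adjusted p = 0.00506). PIN7 fell by 0.76, the influx carrier LAX2 by 1.01 and the kinase gene WAG2 by 0.87. The call for PIN3 was lost without WT replicate 2 (adjusted p = 0.0585), and that for WAG2 without WT replicate 1 (0.146) and without either pif7-1 library (0.0596 and 0.128).

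Of the other growth hormones, ethylene and gibberellin genes followed in part, and the brassinosteroid and cytokinin medians lay near that of all genes. The medians were -0.69, -0.27, -0.11 and -0.05 in that order, beside -0.08 for all genes. Counts are read beside 10.7% of all genes lower and 4.18% higher. In ethylene synthesis, 5 of 7 tested members were lower and 0 higher. ACS8, an enzyme that makes the ethylene precursor ACC, was 14.5 and 17 TPM in WT and 2.16 and 3.07 TPM in pif7-1 (-2.22 ± 0.25, adjusted p = 4e-05), while its relatives ACS4 fell by 2.56 and ACS11 by 2.15. In the gibberellin list, 6 of 17 were lower and 1 higher. GA20OX1, an enzyme of gibberellin synthesis, was 8.08 and 9.95 TPM against 1.24 and 1.16 TPM (-2.18 ± 0.21, adjusted p = 1.01e-05), and GA20OX2 fell by 1.79. GA2OX6, which inactivates gibberellin, fell too, by 1.64. With the mitochondrial covariate 2 ethylene genes and 1 gibberellin gene were lower, with medians of -0.6 and -0.27. The calls for ACS8 (adjusted p = 0.0808 by limma), GA20OX2 (0.161) and GA2OX6 (0.0524) were lost there. With only the 4 compared libraries 4 ethylene and 3 gibberellin genes were lower. Brassinosteroid genes had 2 of 14 lower and 0 higher, close to the 10.7% of all genes. Those were BAS1 (-1.1), which inactivates the hormone, and DET2 (-0.9), which makes it and was lost without pif7-1 replicate 1 (adjusted p = 0.065). Cytokinin genes had 2 of 11 lower, CKX6 (-1.02) and ARR9 (-0.62), and the call for ARR9 was lost without any of the 4 libraries.

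Cell wall genes were mixed. Of 22 tested expansin and XTH genes, which loosen or rejoin the wall, 9 were lower and 1 higher, beside 10.7% and 4.18% of all genes. Their median was -0.49. XTH22, a touch-induced xyloglucan endotransglucosylase, was 152 and 133 TPM in WT and 24.1 and 24.8 TPM in pif7-1 (-2.49 ± 0.26, adjusted p = 2.02e-05). XTH17 fell by 1.75, XTH33 by 1.71 and EXPA11 by 1.07. With the mitochondrial covariate 1 of the 22 genes was lower, with a median of -0.36. The calls for XTH17 (adjusted p = 0.079 by limma), XTH33 (0.0736) and EXPA11 (0.2) were lost there. With only the 4 compared libraries 3 were lower. Of the PIF family, PIF6 fell by 1.19 besides PIF7, with adjusted p = 0.0432 and the call lost without any of the 4 libraries. PIF4 (-0.37) and PIF5 (-0.1) did not pass. The photoreceptor and light signalling list had 2 of 18 lower, a share close to the 10.7% of all genes. Those were FHL (-1.58) and FHY1 (-0.53), which carry phytochrome A into the nucleus, and the call for FHY1 was lost without any of the 4 libraries.

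**Figure D3:**
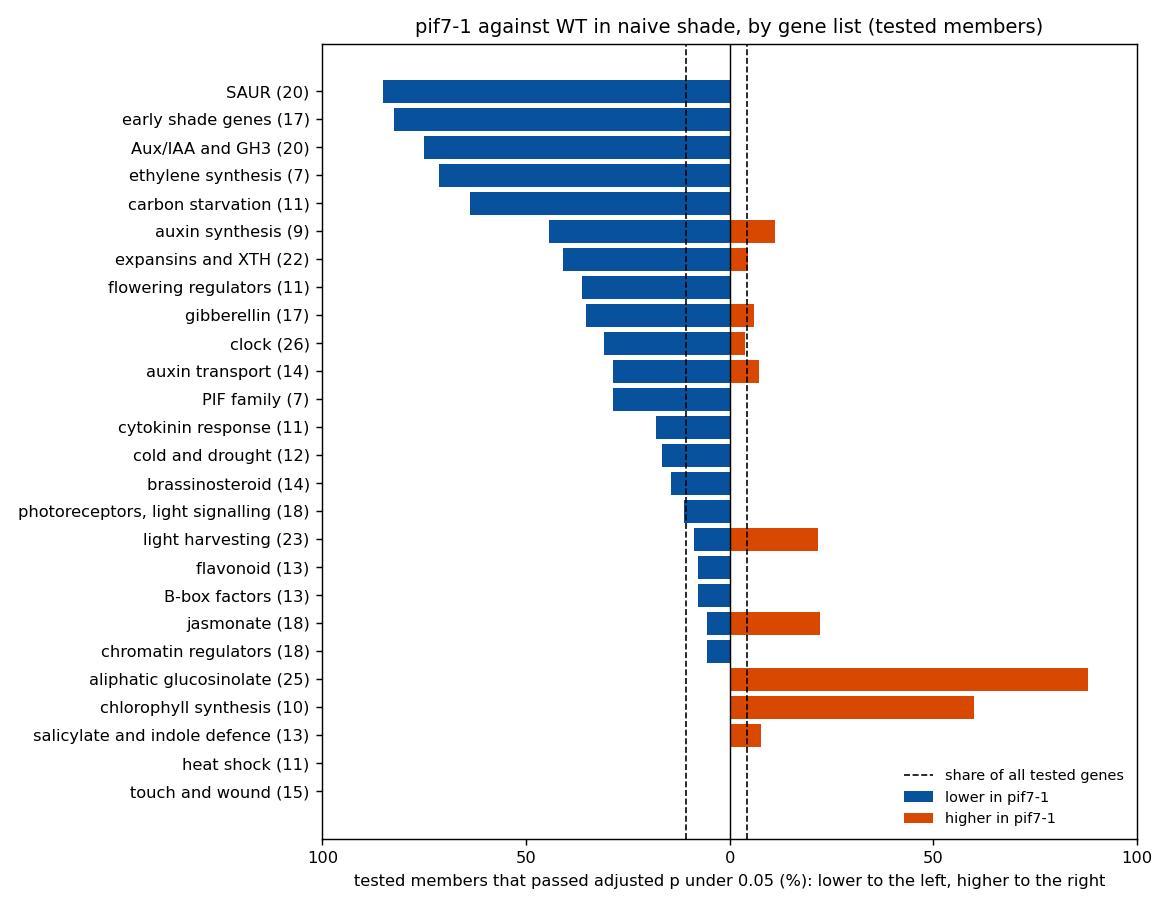
Percentage of tested members of 26 gene lists that were lower (blue, left) or higher (orange, right) in pif7-1 than in WT in naive shade at an adjusted p under 0.05, with the number tested in brackets and dashed lines at the shares of all genes, 10.7% and 4.18%. SAUR, early shade and Aux/IAA genes have the largest lower shares and aliphatic glucosinolate genes the largest higher share.

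By the rule for naming genes, the 12 lowest passing genes also included several outside the lists. ST2A, a sulfotransferase acting on hydroxylated jasmonate, was 27.7 and 32.6 TPM in WT and 1.46 and 1.99 TPM in pif7-1 (-3.52 ± 0.33, adjusted p = 7.01e-06), the lowest log2 difference under that rule. BHLH87, a basic helix-loop-helix factor, was 50.8 and 67.8 TPM against 5.52 and 7.11 TPM (-3.04 ± 0.24, adjusted p = 1.02e-06). AT5G02540, an NAD(P)-binding Rossmann-fold protein, was 131 and 140 TPM against 14.9 and 19.1 TPM (-2.93 ± 0.17, adjusted p = 5.03e-08). P1R3 (-2.9), the leucine-rich repeat gene AT2G15880 (-2.85) and RTFL13 (-2.76), of the small ROTUNDIFOLIA-like peptide family, completed this set with AT1G27565 and AT3G26395, both of uncharacterized proteins. AT1G27565 was listed at 0 in both pif7-1 libraries against 8.58 and 10.07 TPM in WT, and was lower in white light too (-2.33). AT3G26395 was listed at 0 in 1 pif7-1 library and at 5.97 TPM in the other, and its call was lost without WT replicate 1 or pif7-1 replicate 1.

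Among genes higher in pif7-1, the aliphatic glucosinolate pathway, which makes sulphur-rich defence compounds from methionine, had 22 of 25 tested members higher and 0 lower, against 4.18% and 10.7% of all genes, with a median of 1.65. This list was drawn up after the values were seen, when several of its genes stood among the 12 highest, so the count describes the pathway and is not a test of it. CYP83A1, an oxime-metabolizing enzyme of the core pathway, was 8.77 and 10.5 TPM in WT and 70.5 and 37.7 TPM in pif7-1 (2.31 ± 0.25, adjusted p = 2.59e-05). CYP79F1, which converts chain-elongated methionine to oximes, was 2.41 and 2.68 TPM against 22.7 and 11.3 TPM (2.27 ± 0.29, adjusted p = 0.000124), and IPMI1, an isomerase of methionine chain elongation, was 3.67 and 1.87 TPM against 37.5 and 20.3 TPM (2.97 ± 0.37, adjusted p = 0.000116). In shade the libraries of the groups did not overlap for any of the 25 genes, with FMO GS-OX4 separated in the other direction (-0.45, adjusted p = 0.327).

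The regulators of the pathway moved with it. MYB28, the main activator of aliphatic glucosinolate genes, was 19.9 and 29.3 TPM in WT and 66.7 and 41.6 TPM in pif7-1 (1.09 ± 0.21, adjusted p = 0.00358). MYB29, its partner, was 2.08 and 3.13 TPM against 18.7 and 9 TPM (1.98 ± 0.27, adjusted p = 0.000252). AKN2, an APS kinase that makes the sulphate donor for the pathway, was 11.1 and 10.7 TPM against 65.7 and 34.5 TPM (2.03 ± 0.28, adjusted p = 0.000217). For these genes pif7-1 replicate 1 was above replicate 2. Without replicate 1 of pif7-1, 15 of the 25 genes passed, and MYB28, MYB76, MAM3, IIL1, CYP79F2, SUR1 and UGT74C1 were among those lost. Without WT replicate 1, 16 passed. With only the 4 compared libraries in the fit 0 of the 25 passed by limma (23 at an unadjusted p under 0.05), with the same median of 1.65, and 6 passed with the mitochondrial covariate. CYP79F1 and CYP79F2, and MAM1 and MAM3, are close copies whose reads may be shared.

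The WT shade libraries were the low ones. Over the 25 genes, the median log2(TPM + 1) was 3.07 and 2.84 in WT naive shade, 4.72 and 4.73 in WT naive white light, 3.98 and 3.93 in pif7-1 naive white light, and 4.67 and 4.33 in pif7-1 naive shade. In WT CYP83A1 changed by -2.59 with shade (adjusted p = 2.25e-06) and in pif7-1 by 0.15 (adjusted p = 0.78), a difference of 2.74 ± 0.35 (adjusted p = 0.000146). In the difference of responses, 23 of the 25 genes were higher, beside 6.49% of all genes. The list was drawn up from shade values that this difference holds, so the count is not a test. In white light 4 of 25 were lower in pif7-1 and 0 higher, beside 3.97% of all genes lower, and in primed shade 10 were lower and 0 higher, beside 14% of all genes lower. The medians in primed shade were 5.04 and 4.87 in WT and 4.15 and 3.72 in pif7-1. The pif7-1 effect on CYP83A1 in naive shade exceeded that in primed shade by 2.97 (adjusted p = 6.14e-05). CYP83A1 was named for its naive shade difference, which is part of this contrast, so the value is not a separate test.

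**Figure D4:**
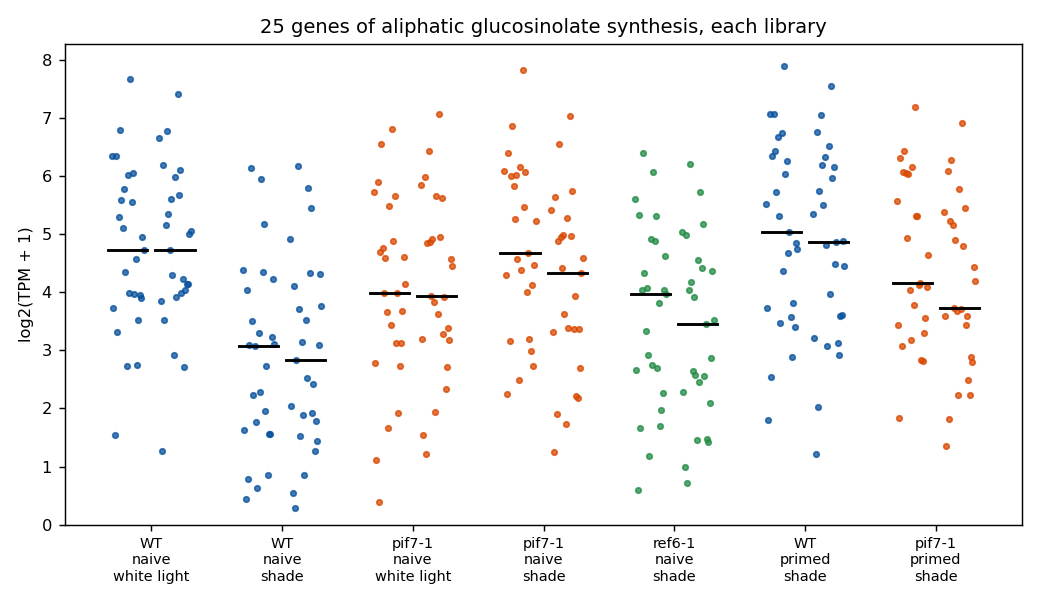
Log2(TPM + 1) of 25 aliphatic glucosinolate genes in each library, 1 point per gene, with black bars at the library medians and 2 columns of points per group (blue WT, orange pif7-1, green ref6-1). WT in naive shade has the lowest medians, 3.07 and 2.84, and pif7-1 in naive shade lies at 4.67 and 4.33.

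The other genes among the 12 highest were less even between libraries. AT3G07230, annotated as a wound-responsive protein-like gene, was listed at 0 and 34.8 TPM in WT and at 118 and 74.6 TPM in pif7-1 (adjusted p = 0.0108). The cystatin gene CYS1 was listed at 0 in both WT libraries and at 34.6 and 2.88 TPM in pif7-1. AT2G05230, a DNAJ-domain gene, was listed at 0 in both WT libraries and at 13 and 2.44 TPM in pif7-1. The glutathione transferase gene GSTF7 was 3.12 and 2.51 TPM against 64.9 and 20.1 TPM (3.29 ± 1.04, adjusted p = 0.0444), and its call was lost without any of the 4 libraries. CB5-C, a cytochrome b5, was 6.79 and 6.57 TPM against 46.7 and 22 TPM (2.11 ± 0.34, adjusted p = 0.000843). Without pif7-1 replicate 1 the calls for AT3G07230 (adjusted p = 0.0918), CYS1 (0.0503), AT2G05230 (0.197), AT4G12520 (0.155) and MAM3 (0.212) were lost. Those for AT2G05230 and AT4G12520 were also lost without either WT library, as was MAM3, and AT4G12520 without pif7-1 replicate 2 too.

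Of 10 tested chlorophyll synthesis genes 6 were higher and 0 lower, with a median of 0.48, beside 4.18% of all genes higher and 10.7% lower. Of 23 light-harvesting genes 5 were higher, 2 were lower and the others did not pass, with a median of 0.36, and the median of their difference of responses was -0.06. CHLH, a subunit of magnesium chelatase, was 236 and 226 TPM in WT and 436 and 441 TPM in pif7-1 (0.92 ± 0.2, adjusted p = 0.00595). RBCS3B, a small subunit of Rubisco and a leaf marker, was 5980 and 6596 TPM against 14088 and 12827 TPM (1.1 ± 0.12, adjusted p = 2.59e-05). Of the 12 leaf and shoot markers 4 were higher and 0 lower. RBCS copies and the LHCB1 genes are near-identical within their families, and LHCB1.5, listed at 14306 and 4383 TPM in WT and at 0 in every naive pif7-1 shade library, is given without a fold change. With the mitochondrial covariate 0 of the chlorophyll synthesis genes and 0 of the light-harvesting genes passed by limma (1 and 7 at an unadjusted p under 0.05), with medians of 0.03 and -0.23. With only the 4 compared libraries, 2 chlorophyll synthesis genes were higher, and 0 light-harvesting genes were higher and 1 lower. Without WT replicate 1, 2 light-harvesting genes were higher and 1 lower, and without pif7-1 replicate 1, 3 chlorophyll synthesis genes were higher.

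A set of sugar- and clock-regulated genes was lower in shade and higher in white light. Of 11 carbon starvation genes 7 were lower and 0 higher in naive shade, beside 10.7% and 4.18% of all genes, with a median of -0.67. In naive white light 6 were higher and 0 lower in pif7-1, beside 1.71% of all genes higher. SEN1, a gene induced by darkness, was 330 and 413 TPM in WT and 43.2 and 114 TPM in pif7-1 in shade (-2.38 ± 0.38, adjusted p = 0.000826). In white light SEN1 was 39.9 and 37.1 TPM in WT and 286 and 196 TPM in pif7-1 (2.59, adjusted p = 0.00143). ASN1, an asparagine synthetase that overlaps another gene, changed by -2.13 in shade and 3.35 in white light, and BZIP1, a sugar-repressed transcription factor, by -1.27 and 1.16, with all 4 values past the threshold. Without WT replicate 2 or without pif7-1 replicate 1 of the shade libraries, 3 carbon starvation genes were lower, and with the mitochondrial covariate 2. With only the 4 compared libraries 0 of the 11 passed by limma (7 at an unadjusted p under 0.05).

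Clock genes had 8 of 26 lower and 1 higher, beside 10.7% and 4.18% of all genes, with a median of -0.3. PRR7, a repressor of morning genes, was 147 and 208 TPM in WT and 55.1 and 70.6 TPM in pif7-1 (-1.47 ± 0.31, adjusted p = 0.00552), and was higher in white light (1.58, adjusted p = 0.00911). PRR5 fell by 1.39, RVE7 by 1.1 and FKF1, which overlaps another gene, by 1.09. The higher gene was LHY, at 99.3 and 91.2 TPM against 153 and 137 TPM (0.6 ± 0.15, adjusted p = 0.0172), and its call was lost without either WT library (adjusted p = 0.0539 and 0.115) or without pif7-1 replicate 1 (0.137). With only the 4 compared libraries 1 clock gene was lower, and with the mitochondrial covariate 2. Without WT replicate 2 the list had 3 lower genes and without pif7-1 replicate 1 it had 4, and the call for PRR7 was lost in each case (adjusted p = 0.068 and 0.0691). MYBL2, a repressor of anthocyanin synthesis, had the same pattern, changing by -1.31 in shade and 1.77 in white light, while 0 of the other 12 tested flavonoid genes passed.

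**Figure D5:**
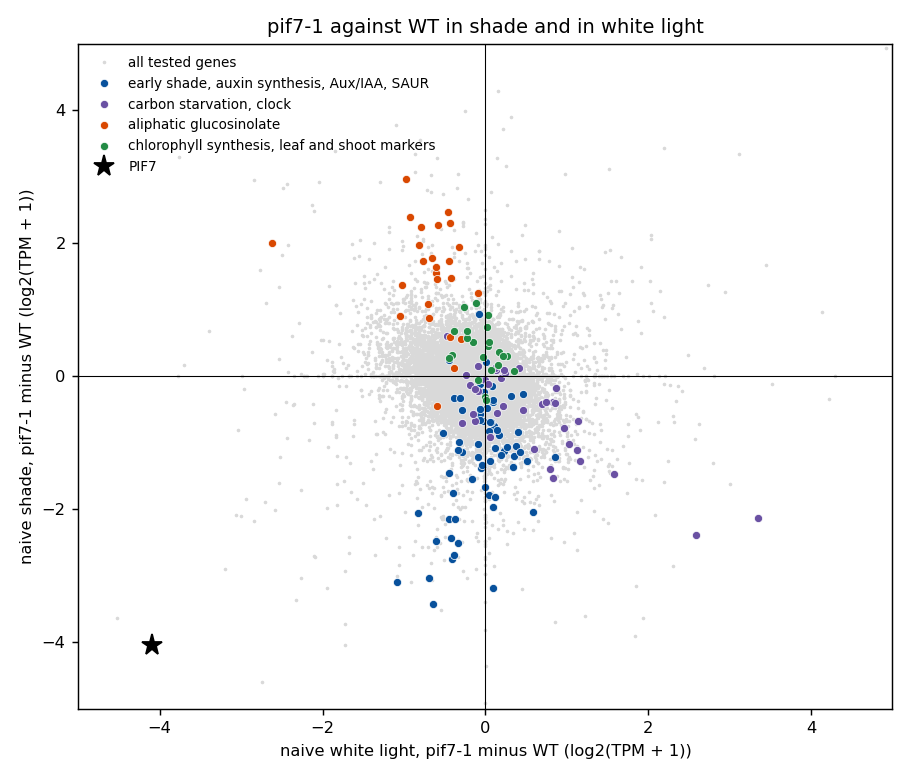
Log2 difference of pif7-1 from WT in naive shade (vertical) against that in naive white light (horizontal), for all tested genes within 5 units (grey) and for groups of list members in colour; the 2 axes share no library. Shade and auxin genes lie below 0 on the vertical axis and near 0 on the horizontal axis, PIF7 lies at -4.04 and -4.09, and SEN1 and ASN1 lie at the lower right.

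The remaining lists are read beside the 4.18% of all genes higher and 10.7% lower, and several stood near or below these shares. Of 18 tested jasmonate genes 4 were higher and 1 lower, with AOS, an enzyme of jasmonate synthesis, at 54.6 and 60.1 TPM in WT and 95.2 and 84.1 TPM in pif7-1 (0.63 ± 0.12, adjusted p = 0.00264) and the regulator MYC2 at 3.81 and 4.52 TPM against 1.45 and 1.57 TPM (-1.04 ± 0.23, adjusted p = 0.00805). The number of higher jasmonate genes was 1 without WT replicate 1, 2 without WT replicate 2 and 1 without pif7-1 replicate 1, and MYC2 did not pass in the latter pair of fits. Flowering regulators had 4 of 11 lower and 0 higher, SOC1 (-1.03), MAF2 (-0.85), MAF3 (-0.68) and SVP (-0.66), and the count was 1 without WT replicate 1, 2 without WT replicate 2, 0 without pif7-1 replicate 1 and 2 without pif7-1 replicate 2. Cold and drought genes had 2 of 12 lower, KIN2 (-1.11) and CBF2 (-0.97), of which CBF2 was lost without any of the 4 libraries and KIN2 without WT replicate 2 or pif7-1 replicate 1. B-box factors had 1 of 13 lower, BBX22 (-0.7), and chromatin regulators 1 of 18, MRG2 (-0.49), which was lost without WT replicate 2 or either pif7-1 library. Salicylate and indole defence genes had 1 of 13 higher, GSTF7. None of 15 touch and wound genes and none of 11 heat shock genes passed by limma (3 and 4 at an unadjusted p under 0.05), with TCH2 (-0.51, adjusted p = 0.0572) and HSFA7A (-0.48, adjusted p = 0.0619) the nearest. Root markers had 1 of 14 lower, ESB1 (-0.77), lost without WT replicate 2 or pif7-1 replicate 1, and 0 seed storage and 0 dividing cell genes passed by limma (1 and 0 at an unadjusted p under 0.05).

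The difference of the naive shade responses, pif7-1 minus WT, passed for 2764 genes (12.9%), 1394 higher and 1370 lower. Of the shade and auxin lists, 11 of 17 early shade, 3 of 9 auxin synthesis, 11 of 20 Aux/IAA and GH3 and 16 of 20 SAUR genes were lower in this comparison, beside 6.38% of all genes. IAA29 changed by 4.13 with shade in WT and 1.34 in pif7-1, a difference of -2.78 ± 0.33 (adjusted p = 8.05e-05). YUC8 changed by 2.92 and 0.76 (difference -2.16, adjusted p = 0.000411), and IAA19 by 3.29 and 0.96 (difference -2.33, adjusted p = 2.08e-05). IAA29, YUC8 and IAA19 were named for their naive shade difference, which is part of this contrast. The list counts and these values share the shade libraries with the direct comparison and are not a second line of evidence. The count was 1129 without pif7-1 shade replicate 1, 1768 and 1809 without WT shade replicates 1 and 2, 1600 to 1823 without a pif7-1 white light library and 1727 without WT white light replicate 1. Shade changed 7650 genes (35.6%) in naive WT, 2681 higher and 4969 lower. In naive pif7-1 it changed 1584 (7.38%), 406 higher and 1178 lower. The balance was the opposite in primed WT, where 5035 genes changed, 3115 higher and 1920 lower. Summed mitochondrial TPM was 559 and 321 in naive WT shade and 69.5 and 102 in naive WT white light. The part of organelle transcript in these counts was not tested.

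In naive white light, where no triggering shade was given, 1219 genes (5.68%) differed between pif7-1 and WT, with 367 higher and 852 lower. Of the early shade genes 1 of 17 was lower there, BEE1 (-0.83, adjusted p = 0.0222), and of the auxin synthesis and Aux/IAA and GH3 genes 0 passed by limma. Of the SAUR genes 1 of 20 was higher, and 0 were lower. The count was 373 without WT replicate 2, 217 without pif7-1 replicate 1 and 428 without pif7-1 replicate 2. Genes called lower in both lights numbered 36. That is 1.56% of those lower in shade, beside 3.97% of all genes lower in white light. It is 4.23% of those lower in white light, beside 10.7% of all genes lower in shade. Genes higher in both numbered 14. That is 1.56% of those higher in shade, beside 1.71% of all genes higher in white light. It is 3.81% of those higher in white light, beside 4.18% of all genes higher in shade. Of the genes lower in shade 178 (7.72%) were higher in white light, beside 1.71% of all genes. Of those higher in shade 92 (10.3%) were lower in white light, beside 3.97% of all genes.

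In primed shade 4063 genes (18.9%) differed between pif7-1 and WT, 1059 higher and 3004 lower, with 1884 and 1386 called without WT replicates 1 and 2. There, 5 of 17 early shade genes were lower and 3 higher, 4 of 9 auxin synthesis genes were lower and 1 higher, 11 of 20 Aux/IAA and GH3 genes were lower and 3 of 20 SAUR genes were lower, beside 14% of all genes lower and 4.93% higher. YUC9 differed by -3.51 in primed shade and -3.1 in naive shade, and IAA29 by -2.14 and -3.43. The primed libraries of both genotypes lie in the same deposition block, and they share no library with the naive comparison. Genes called lower in both shade comparisons numbered 197. They made up 8.54% of the naive calls, beside 14% of all genes lower in primed shade. They made up 6.56% of the primed calls, beside 10.7% of all genes lower in naive shade. Those higher in both numbered 72. These were 8.03% of the naive calls, beside 4.93% of all genes higher in primed shade, and 6.8% of the primed calls, beside 4.18% in naive shade. Of the genes higher in naive shade 281 (31.3%) were lower in primed shade, beside 14% of all genes, and of those lower in naive shade 271 (11.7%) were higher in primed shade, beside 4.93% of all genes. The difference between the naive and the primed pif7-1 effect passed for 4824 genes (22.5%).

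The set of genes raised by shade was also taken from primed WT, which the naive comparison does not use. Of 597 genes that rose by more than 2-fold there, 180 (30.2%) were lower and 34 (5.7%) higher in pif7-1 in naive shade, beside 10.7% and 4.18% of all genes, with a median of -0.16 beside -0.08 for all genes. In naive white light 45 of the 597 were lower and 36 higher, beside 3.97% and 1.71% of all genes. Of 528 genes that fell by more than 2-fold in primed WT, 40 (7.58%) were higher and 21 (3.98%) lower in naive shade, beside 4.18% and 10.7% of all genes, with a median of 0.24.

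Within the later deposition block, 4269 genes (19.9%) differed between pif7-1 and ref6-1 in naive shade, 1361 higher and 2908 lower, and the count was 2302 and 2579 without pif7-1 replicates 1 and 2 and 2494 without ref6-1 replicate 1. The ref6-1 line carries a lesion in REF6, a histone H3K27 demethylase, so this comparison joins the effects of both mutations. Of the lists, 13 of 17 early shade, 15 of 20 Aux/IAA and GH3 and 16 of 20 SAUR genes were lower in pif7-1, beside 13.5% of all genes. Summed mitochondrial TPM was 407 and 158 in these ref6-1 libraries and 73 and 91.9 in pif7-1. With the mitochondrial covariate 1223 genes differed. The part of organelle transcript in this comparison was not tested. IAA29 was 257 and 192 TPM in ref6-1, within the range seen in WT or above it, and differed by -3.54 from pif7-1. AT1G27565 was listed at 0 in both ref6-1 libraries as well as in both pif7-1 libraries. Glucosinolate genes were higher in pif7-1 than in ref6-1 for 20 of 25 members, beside 6.34% of all genes. That list was drawn up from values of these same pif7-1 libraries, so the count is not a test. The comparison with ref6-1 shares the pif7-1 libraries with the main one.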

How the data were processed

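RNA of whole seedlings was sequenced in 24 libraries, 2 for each of 12 groups formed by 3 genotypes, 2 histories and 2 lights, as given by the sample titles. The authors deposited TPM values for 33026 genes, of which 193 were assembled loci without an identifier. Tools named in the submitters' processing notes are STAR, HTSeq, DESeq2, cutadapt and FastQC, with build TAIR10. How the deposited TPM was made is not given in the sources used here. Because read counts are not kept in TPM, depth is unknown and no counting interval is given.

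Values were analysed as log2(TPM + 1), so fold changes of low genes are understated. A gene was tested if 2 or more libraries reached 1 TPM (21473 genes). A limma 3.58.1 model (R 4.3.3) described each of the 12 groups by its mean over all 24 libraries, with 12 residual degrees of freedom and a variance trend. P-values were Benjamini-Hochberg adjusted over all tested genes, and an adjusted p under 0.05 passed. A permutation of 2 against 2 libraries cannot give a p below 0.333. Standard errors are those of the model.

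Of 463 members of 30 gene lists 437 were tested. The members, lists and tests were chosen with earlier results of these data known, and the aliphatic glucosinolate list after the values were seen. Named genes were PIF7, the 12 highest and 12 lowest passing protein-coding genes without library overlap, with a mean of at least 5 TPM in the higher group and overlapping no other gene, the 5 highest and 5 lowest in the difference of responses, and up to 4 passing members per list with the largest change, or, in lists with no passing member, the 2 of smallest p. Other list members named were chosen after their values were seen. Names, overlaps and promoters came from RefSeq annotation of TAIR10.1, which matched 32548 identifiers, and 7424 tested genes overlap another gene, which unstranded counting could mix.

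On simulated data the main comparison recovered 14, 29, 44 and 48 of 50 genes changed by 1.5, 2, 4 and 8-fold and called 6 of 21273 unchanged genes. For the difference of responses the numbers were 5, 19, 37 and 45 of 50, and 7 of 21273. The simulated noise was drawn independently for each gene and library, without shifts shared by the genes of a library. False calls from such shifts were therefore not measured. Alternatives were other pseudocounts, filters and scalings, a replicate block, the compared libraries alone, nuclear genes or non-overlapping genes alone, and leaving out each library. A lone library was then assumed to vary like the other groups.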

Additional observations from a re-analysis of the deposited data

Results flagged for a closer look

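The values here are tested differences between groups that passed, apart from YUC9 and PIL1, given at the end for comparison. None is explained. The naive pif7-1 libraries were deposited later than naive WT, so block and genotype cannot be told apart in the naive effects.

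The shade responses of naive pif7-1 and WT differed for 2764 genes. By the naming rule the lowest differences, pif7-1 minus WT on the log2 scale, were -5.16 for AT2G15880, -4.97 for SEN1, -3.46 for XTH22, -3.46 for RTFL21 and -3.27 for IAA6. The highest were 4.62 for MAM3, 4.41 for the glutathione transferase gene GSTU25, 4.35 for CYS1, 4.24 for AT3G07230 and 3.93 for IPMI1.

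The pif7-1 effect in naive shade differed from that in primed shade for 4824 genes (22.5%), in comparisons that share no library. The count was 2789 without naive pif7-1 shade replicate 1 and 3071 and 3129 without primed WT shade replicates 1 and 2. Among the lowest genes in naive shade, the naive minus primed difference was -3.57 for AT2G15880, -3.39 for P1R3, -2.98 for AT3G26395, -2.08 for IAA6, -1.65 for RTFL13, -1.47 for ST2A, -1.36 for IAA19, -1.28 for IAA29 and -1.19 for AT5G02540. Among the highest it was 4.45 for AT2G05230, 4.25 for IPMI1, 4.13 for CYS1, 4.03 for AT4G12520, 3.95 for AT3G07230, 3.48 for CYP79F1, 3.01 for AKN2, 2.97 for CYP83A1, 2.86 for FMO GS-OX3 and 2.64 for CB5-C. Both sets of genes were named for their naive shade values, which this difference holds, so large values were favoured by the choice. YUC9 (0.41, adjusted p = 0.55) and PIL1 (0.01, adjusted p = 0.993) did not pass.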

How the results depend on the processing

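For pif7-1 against WT in naive shade, the counts ranged over the 4 fits without a library from 967 to 1877 genes called, 228 to 717 higher and 739 to 1186 lower. With only the compared libraries they were 535, 100 and 435, and with the mitochondrial covariate, added after the data were seen, 157, 48 and 109. Quantile normalization gave 1989 higher and 1693 lower. The cause of these shifts was not tested. For the other counts, given in the order difference of responses, naive white light, primed shade, pif7-1 against ref6-1, and naive minus primed effect, the compared libraries alone gave 1465, 0, 1, 2 and 2857, with 3556 genes at an unadjusted p under 0.05 by limma in naive white light, 4817 in primed shade and 5383 against ref6-1. Smaller fits have fewer residual degrees of freedom. The covariate gave 1118 for the difference of responses, 1223 against ref6-1 and 659 for the naive minus primed effect. Leaving out a library gave 1129 to 2961 for the difference of responses, 217 to 845 in naive white light, 1386 to 4410 in primed shade, 2302 to 4006 against ref6-1 and 2789 to 5422 for the naive minus primed effect.

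Replicate numbers did not pair the libraries: the deviations of N_SH_WT and N_SH_pif7-1 correlated at -0.01, and with the replicate block 892 genes were higher and 2273 lower. The block removed the calls of PIF6 and CRD1 among named genes.

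Over 124 named genes and 14 settings, 1425 of 1707 values kept direction and side of the threshold, 265 no longer passed, 13 newly passed and 4 changed sign. Those were EM6 (0.07), OLEO2 (0.52), CRD1 (-0.04) and FMO GS-OX4 (0.61), all with the mitochondrial covariate. Depth is unknown, and 2 libraries per group limit every value.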
